A study of Homo sapiens with 2 samples.

Results

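The replication-dependent histone genes were taken as all genes whose name started with HIST1H, HIST2H, HIST3H or HIST4H. This rule gave 71 of the 33538 genes in the deposited tables. The members were 6 H1, 17 H2A, 18 H2B, 15 H3 and 15 H4 genes. Of these, 55 belonged to the HIST1 cluster, 12 to HIST2, 3 to HIST3 and 1 to HIST4. Transcripts of these genes captured by poly(A) priming were compared between mock- and DAC-treated HCT116, a human colon cancer cell line. Decitabine (DAC), which is built into replicating DNA and traps DNA methyltransferases, had been added at 0.5 µM both 1 and 3 days after the start of the experiment. The drug was absent from day 5 onward, and droplet-based single-cell RNA sequencing was done on cells taken at day 7. The other group was mock-treated, and both groups came from the same line.

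Histone octamers of H2A, H2B, H3 and H4 wrap DNA into nucleosomes, and the linker histone H1 binds where DNA enters and leaves the nucleosome. Cells make most of these proteins in S phase, when new DNA is packed, and the genes for them lie in clusters. Their mRNA normally ends after a stem-loop bound by SLBP and carries no poly(A) tail, whereas the libraries were primed on poly(A). The counts therefore describe polyadenylated or internally primed transcripts, which cannot be told apart, and not the whole histone mRNA of a cell.

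One library was available per condition. The mock-treated library had 49911689 unique molecular identifiers (UMIs, each standing for 1 captured molecule) in 1783 cells, with a median of 27899 per cell. After DAC there were 59046165 UMIs over 1751 cells, with a median of 35340. The libraries had 12 cell barcodes in common. Of the colon epithelial markers, KRT18 had a UMI in 94.8% of mock-treated and 98.7% of DAC-treated cells, KRT8 in 91.1% and 93.2%, and EPCAM in 85.7% and 77.1%. CDH1 was found in 38.0% and 31.8% of cells, and VIL1 in only 2.02% and 3.43%. Of the blood, fibroblast and endothelial markers, PTPRC, CD3E, COL1A2, DCN and PECAM1 had no UMI in the mock-treated library and between 9 and 46 UMIs in the DAC-treated library. LYZ had 10 and 31 UMIs and VWF had 6 and 62. COL1A1 was found in 22.9% of mock-treated and 33.3% of DAC-treated cells. Without replicate libraries no test between conditions was possible. All 95% confidence intervals (CI) cover counting error only, namely exact Poisson intervals for sums, exact conditional binomial intervals for ratios, and Clopper-Pearson intervals for shares of cells.

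The stem-loop was searched for after the stop codon, because it decides how a histone mRNA ends. GENCODE release 44 on hg38 held 66 of the 71 members under the deposited identifier, and a stem-loop of 16 bases was found in all 66. It began between 22 and 62 bases after the stop codon, with a median of 35 bases. The stem opened with GGCCCT in 15 of 15 H4 genes and with GGCTCT in 50 of the 51 other genes. The most frequent form was found in 36 members, another in 10 members, all H4 genes, and a further form, that of HIST1H1A and HIST1H2BJ, in 10 members of the other types. The following DNA-strand sequences show the stem-loop in capitals with 5 bases on each side, for the members with the most UMIs and for members found mainly in the DAC-treated library.
HIST1H4C: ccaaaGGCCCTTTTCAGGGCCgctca
HIST1H1C: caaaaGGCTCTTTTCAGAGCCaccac
HIST2H2AC: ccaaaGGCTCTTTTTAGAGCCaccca
HIST1H1A: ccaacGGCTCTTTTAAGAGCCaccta
HIST1H4H: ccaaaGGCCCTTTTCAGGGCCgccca
HIST1H2BJ: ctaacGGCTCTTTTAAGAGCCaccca
The stem-loop of HIST1H4C lay on chromosome 6 from 26104317 to 26104332 on the plus strand, and that of HIST1H1C on the same chromosome from 26055744 to 26055759 on the minus strand. In 49 members, among them HIST1H4C, HIST1H1C, HIST2H2AC and HIST1H1A, annotated transcripts ended near the stem-loop. In 17 members, among them HIST1H4H and HIST1H2BJ, at least 1 annotated transcript ended 50 bases or more past it. The stem-loop was part of such a transcript in 12 of these members and not in the other 5, which were HIST1H2BC, HIST1H2BD, HIST1H2BJ, HIST1H2BN and HIST2H2BF.

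Summed over all members, 56135 histone UMIs were counted in the mock-treated library (95% CI 55672 to 56601) and 60790 in the DAC-treated library (60308 to 61275). As CPM, UMI counts scaled to the library total, these were 1125 and 1030. The log2 ratio of CPM, DAC over mock, was -0.13. This small difference held opposite parts. HIST1H4C alone gave 77.9% of the histone UMIs of mock-treated cells and 49.3% of those of DAC-treated cells. Without it, the other 70 genes had 12424 and 30833 UMIs, 249 and 522 CPM, a ratio of 2.10 (2.05 to 2.14). This difference was smaller or not detectable among cells with many S-phase UMIs, as given with the S-phase ranges. The sign of the total was not stable, since it was 0.01 with every cell thinned to 10000 UMIs and 0.26 with cells weighted equally.

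By type, H1 genes had 6056 UMIs in the mock-treated library and 18982 in the DAC-treated library, a CPM ratio of 2.65 (2.57 to 2.73). H2B genes had 1179 and 4671, a ratio of 3.35 (3.14 to 3.57). H3 genes, the least captured type, had 294 and 675, a ratio of 1.94 (1.69 to 2.23). As a mean over cells, the log2 ratio of H3 genes was 2.24 instead of 0.96. Summed over all cells, these 3 types were higher in DAC-treated cells. H2A genes had 4521 and 5522 UMIs, a ratio of 1.03 (0.992 to 1.07), so that no difference was detectable for their sum over all cells. H4 genes were the only type with a lower sum over all cells after DAC, with 44085 and 30940 UMIs, a ratio of 0.593 (0.585 to 0.602). This direction rested on HIST1H4C: the other 14 H4 genes had 374 and 983 UMIs, a ratio of 2.22 (1.97 to 2.51). With scaling by the median of ratios, all log2 ratios were lower by 0.24, since the median gene with 100 UMIs or more was higher in the DAC-treated library by that amount. That scaling turned the H2A sum to -0.19 and the direction of no other type.

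**Figure D1:**
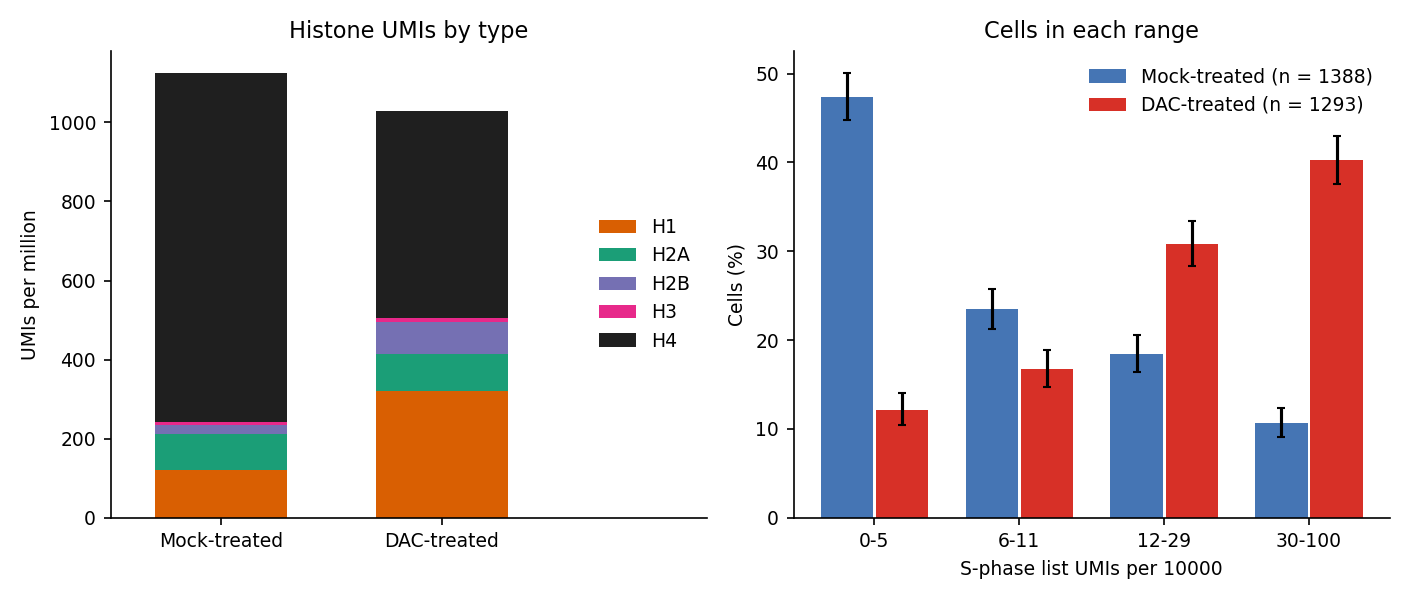
The left panel stacks the CPM of the 5 histone types in each library, where H4 had 883 CPM in mock-treated and 524 CPM in DAC-treated cells and H1 had 121 and 321 CPM. The right panel shows the percent of cells, thinned to 10000 UMIs, in 4 ranges of S-phase list UMIs, with Clopper-Pearson 95% intervals as bars: 47.4% of mock-treated cells were in the lowest range and 40.3% of DAC-treated cells in the highest.

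Of the 71 members, 67 had a UMI in the DAC-treated library and 46 in the mock-treated library, and no member was found in mock-treated cells alone. The 21 members found only in the DAC-treated library were 31.3% of the 67, compared with 16.9% of all 25429 genes with a UMI, while 3.43% of these genes were found only in the mock-treated library. The DAC-treated library was also the deeper one, and the part of depth was not tested. HIST1H3D, HIST1H4K, HIST2H3A and HIST2H3C had no UMI in either library, and the count of HIST1H4K is uncertain because it shares 91.6% of its 91-base stretches with HIST1H4J. At least 100 UMIs over both libraries were present for 31 members, and the other 40 members together had 393 and 808 UMIs. Among the 31, 19 were 1.5-fold or more higher in DAC-treated cells, compared with 31% of all 13547 genes with 100 UMIs or more. Lower by the same fold were 5 members, against 14.2% of all genes, a share close to the background. Because members high in only 1 library pass this limit through that library, the counts describe these 31 and not all members. The median log2 ratio of the 31 was 1.31, with genes at 0 placed at 3 counts, against 0.24 for all genes. The counts of higher and lower members were 18 and 5 with median-of-ratios scaling, under which 21.3% of all genes were higher and 21.6% lower. Another annotated gene overlapped 21 of the matched members on the same strand, which makes their counts less certain. Of the members named here these were HIST1H1E, HIST1H1T, HIST1H2AC, HIST1H2AE, HIST1H2AM, HIST3H2A, HIST1H2BA, HIST1H2BC, HIST1H2BD, HIST1H2BH, HIST2H2BF, HIST3H2BB, HIST1H3D, HIST1H3J and HIST1H4E. The higher members were 4 of 5 H1, 3 of 8 H2A, 8 of 10 H2B, 2 of 3 H3 and 2 of 5 H4 genes.

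**Figure D2:**
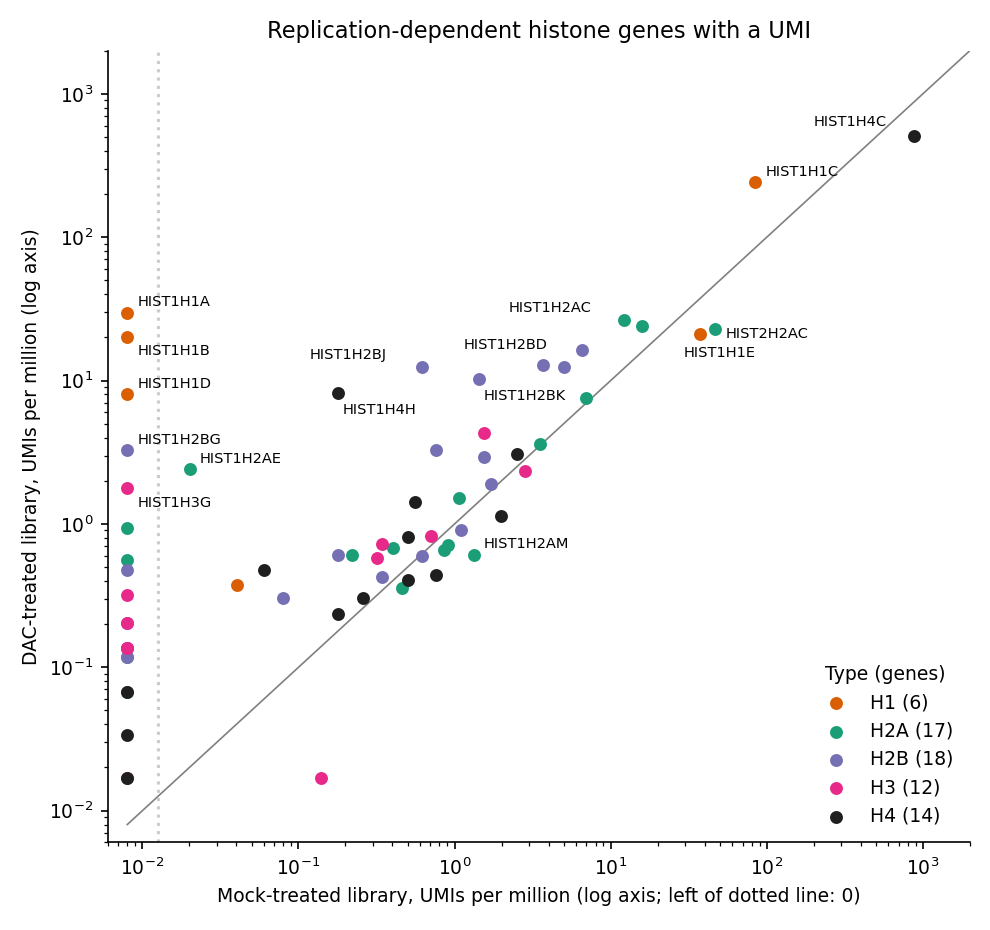
CPM of the 67 histone genes with a UMI in the DAC-treated against the mock-treated library, on log axes, with 1 point per gene and color by type. Points left of the dotted line had no UMI in mock-treated cells, led by HIST1H1A at 29.8 CPM in DAC-treated cells, while HIST1H4C lies below the line of equal levels with 876 and 507 CPM.

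The linker histone genes differed widely among themselves. HIST1H1A, HIST1H1B and HIST1H1D had no UMI in 1783 mock-treated cells, which allows up to 0.207% of cells with a UMI for each. The RefSeq promoters (GRCh38.p14) of these 3 genes, and that of HIST1H1C, which was found in both libraries, are given as the 250 bases before the start in the direction of transcription, with CpG dinucleotides in capitals.
HIST1H1A: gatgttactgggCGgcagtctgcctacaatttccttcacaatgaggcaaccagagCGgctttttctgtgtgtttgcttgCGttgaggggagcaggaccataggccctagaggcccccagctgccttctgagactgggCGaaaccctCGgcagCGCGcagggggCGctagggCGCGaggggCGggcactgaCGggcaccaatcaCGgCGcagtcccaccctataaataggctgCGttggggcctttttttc
HIST1H1B: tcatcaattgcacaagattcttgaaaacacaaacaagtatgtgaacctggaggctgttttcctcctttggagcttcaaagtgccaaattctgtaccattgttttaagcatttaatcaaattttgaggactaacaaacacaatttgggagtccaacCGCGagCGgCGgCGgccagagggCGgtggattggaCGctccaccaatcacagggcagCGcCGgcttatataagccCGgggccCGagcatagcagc
HIST1H1D: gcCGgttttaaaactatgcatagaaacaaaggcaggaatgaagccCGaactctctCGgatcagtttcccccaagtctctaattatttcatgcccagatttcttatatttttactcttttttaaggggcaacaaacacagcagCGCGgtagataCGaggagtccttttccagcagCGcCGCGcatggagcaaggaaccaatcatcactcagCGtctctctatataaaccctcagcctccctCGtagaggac
HIST1H1C: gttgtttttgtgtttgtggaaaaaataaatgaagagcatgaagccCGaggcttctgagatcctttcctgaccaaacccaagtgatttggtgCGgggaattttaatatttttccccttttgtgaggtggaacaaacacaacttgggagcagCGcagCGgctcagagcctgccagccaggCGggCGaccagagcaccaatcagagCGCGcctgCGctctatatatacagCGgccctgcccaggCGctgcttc
These lie on the minus strand of chromosome 6, from 26017788 to 26018037, from 27867589 to 27867838, from 26234988 to 26235237 and from 26056471 to 26056720, in this order. With the 50 bases after the start included, the promoters had 17, 13, 11 and 15 CpGs, within the range of the histone promoters and near the median of 14 over all 35116 RefSeq promoters of the same length. Methylation of these CpGs was not measured here.

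HIST1H1A (ENSG00000124610, 26017032 to 26017787) had 1762 UMIs in DAC-treated cells (95% CI 1681 to 1846), at least 496-fold higher in CPM when 3 counts stand for the mock-treated library. HIST1H1B (27866792 to 27867588) had 1197 UMIs, at least 337-fold higher. HIST1H1D (26234212 to 26234987) had 474 UMIs, at least 134-fold higher. Among DAC-treated cells, a UMI was present in 21.0% (19.1 to 22.9%) for HIST1H1A, 15.2% (13.6 to 17.0%) for HIST1H1B and 8.85% (7.56 to 10.3%) for HIST1H1D, and any of the 3 genes was found in 456 of the 1751 cells. A single DAC-treated cell held up to 65 UMIs of HIST1H1A. In the 5% of cells with the most UMIs of each gene were 64.2%, 71.1% and 85.9% of its UMIs, respectively.

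HIST1H1C, the H1 gene with the most UMIs (ENSG00000187837, chromosome 6 from 26055740 to 26056470), was counted 4186 times in the mock-treated and 14271 times in the DAC-treated library, a CPM ratio of 2.88 (2.78 to 2.98). It was found in 48.6% of mock-treated and 69.7% of DAC-treated cells. HIST1H1E (26156329 to 26157115) went the other way, with 1868 and 1256 UMIs and a ratio of 0.568 (0.529 to 0.611). The testis-expressed HIST1H1T had 2 and 22 UMIs, a ratio of 9.30 (2.29 to 81.6). Thus, of the 6 H1 genes, HIST1H1E alone was lower in the DAC-treated library.

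Among H2A genes, HIST2H2AC (chromosome 1 from 149886918 to 149887411) was the most captured over both libraries and in mock-treated cells, with 2338 and 1347 UMIs and a ratio of 0.487 (0.455 to 0.521). In DAC-treated cells HIST1H2AC and HIST3H2A had more UMIs. The other 16 H2A genes together had 2183 and 4175 UMIs, a ratio of 1.62 (1.53 to 1.70). HIST1H2AC (chromosome 6 from 26124145 to 26139116) had 605 and 1562 UMIs, a ratio of 2.18 (1.99 to 2.40). HIST3H2A was at the fold limit, with 793 and 1409 UMIs and a ratio of 1.5 (1.38 to 1.64), and no longer past it with median-of-ratios scaling. HIST1H2AG was close to equal, with 347 and 447 UMIs and a ratio of 1.09 (0.944 to 1.26), which was below 1 with median-of-ratios scaling. HIST1H2AE had 1 UMI in mock-treated and 142 in DAC-treated cells, a ratio of 120 (21.2 to 4774). HIST1H2AL had 0 and 55 UMIs, at least 15.5-fold higher. The testis-expressed HIST1H2AA had 0 and 33 UMIs, at least 9.30-fold higher. HIST1H2AM had 66 and 36 UMIs, a ratio of 0.461 (0.298 to 0.702), but its transcript overlaps HIST1H3J, and both genes together had 82 and 70 UMIs, a ratio of 0.722 (0.517 to 1.00).

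Among H2B genes with 100 UMIs or more, 8 of 10 were higher and none was lower by 1.5-fold, beside 31% and 14.2% of all genes. HIST1H2BN, the most captured, had 327 and 959 UMIs, a ratio of 2.48 (2.18 to 2.82). HIST1H2BC had 249 and 731 UMIs, also with a ratio of 2.48 (2.15 to 2.88), and HIST1H2BD had 184 and 754, a ratio of 3.46 (2.94 to 4.09). Other H2B genes differed widely. HIST3H2BB had 55 and 54 UMIs, a ratio of 0.830 (0.559 to 1.23), and HIST2H2BF had 85 and 113, a ratio of 1.12 (0.841 to 1.51), which was below 1 with median-of-ratios scaling. HIST1H2BK had 72 and 602 UMIs, a ratio of 7.07 (5.53 to 9.16). HIST1H2BJ (chromosome 6 from 27125897 to 27132795) had 31 and 729 UMIs, a ratio of 19.9 (13.9 to 29.5), and was found in 1.57% of mock-treated and 18.8% of DAC-treated cells. HIST1H2BG had 0 and 193 UMIs, at least 54.4-fold higher, and HIST1H2BH had 0 and 28, at least 7.89-fold higher. The testis-expressed HIST1H2BA had 0 and 8 UMIs, at least 2.25-fold higher.

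H3 genes were captured least, and only 6 of 15 had a UMI in mock-treated cells. HIST1H3H had the most over both libraries, with 77 and 256 UMIs and a ratio of 2.81 (2.17 to 3.67). HIST1H3G had 0 and 105 UMIs, at least 29.6-fold higher. HIST1H3B, which had the most in mock-treated cells, had 142 and 139 UMIs, a ratio of 0.827 (0.650 to 1.05). The testis-expressed HIST3H3 had 0 and 8 UMIs. HIST2H3A and HIST2H3C share nearly all of their transcript sequence, so their counts of 0 are uncertain.

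Among H4 genes, HIST1H4C (ENSG00000197061, chromosome 6 from 26103933 to 26104337) was counted 43711 times in the mock-treated (95% CI 43302 to 44123) and 29957 times in the DAC-treated library (29619 to 30298), a ratio of 0.579 (0.571 to 0.588). UMIs near the transcript end do not scale with gene length, but how well each transcript was captured is unknown, so levels of different members are not amounts of mRNA. HIST1H4C was found in 81.9% (80.1 to 83.7%) of mock-treated and 66.3% (64.0 to 68.5%) of DAC-treated cells. HIST1H4H (chromosome 6 from 26277609 to 26285638) differed in the opposite direction, with 9 and 485 UMIs and a ratio of 45.6 (23.8 to 100.2). HIST1H4E had 125 and 182 UMIs, a ratio of 1.23 (0.975 to 1.56). HIST2H4A and HIST2H4B share their transcript sequence, and their ratios of 2.54 and 0.572 are therefore uncertain, the latter also because it turned to a log2 ratio of 0.20 in thinned cells. Together they had 127 and 151 UMIs, a ratio of 1.01 (0.789 to 1.28).

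**Figure D3:**
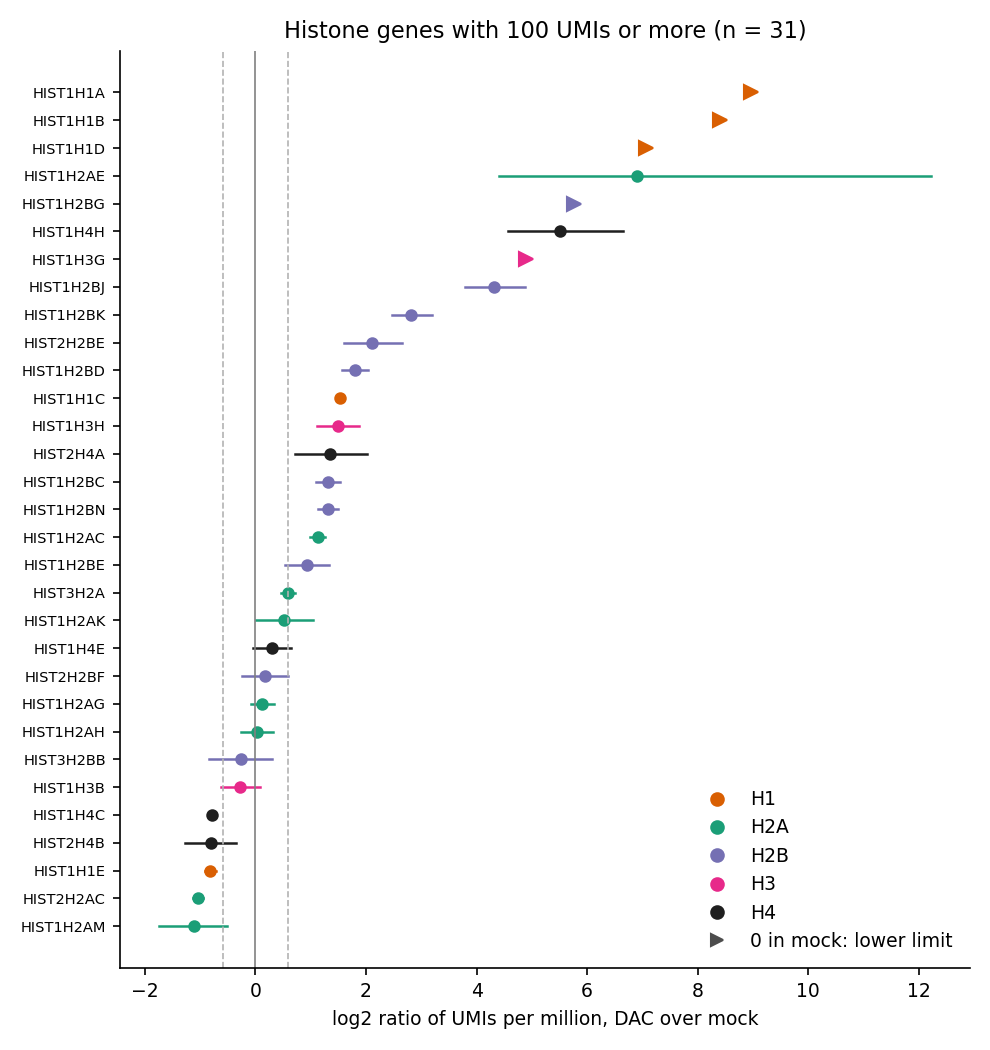
The log2 ratio of CPM, DAC over mock, for the 31 histone genes with 100 UMIs or more, with exact conditional binomial 95% intervals as lines and dashed lines at 1.5-fold. Arrowheads mark the lower limits of 5 genes without a UMI in mock-treated cells, up to at least 496-fold for HIST1H1A, and the 5 genes lower by 1.5-fold lie at the bottom.

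Absence from the mock-treated library was not particular to H1. Members with 20 UMIs or more after DAC and none in mock-treated cells were HIST1H1A, HIST1H1B, HIST1H1D, HIST1H2AA, HIST1H2AL, HIST1H2BG, HIST1H2BH and HIST1H3G. These were 8 of the 53 members with 20 UMIs or more over both libraries, or 15.1%, compared with 4.15% of all 17368 such genes. The reverse was found for no member and for only 1 gene, or 0.00576% of all such genes, so it does not set the members apart. Each of the 8 passed the limit of 20 UMIs through the DAC-treated library alone, so these shares do not stand for all members. That library was also the deeper one, and the part of depth was not tested. Together the 8 genes reached 3847 UMIs, and 31.5% of the DAC-treated cells (29.3 to 33.7%) had a UMI of at least 1 of them. A further 13 members had no UMI in mock-treated cells and between 1 and 19 in DAC-treated cells. Promoters of the 8 genes had a median of 12 CpGs in 300 bases, from 4 to 17, and those of 31 members with 20 UMIs or more in mock-treated cells a median of 13, from 5 to 25.

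Letters of known histone promoter elements were searched for on both strands of the promoters of 66 members in RefSeq. These were not the same 66 as in GENCODE, since they included the 5 members absent there and did not include HIST1H4C, HIST1H4A, HIST1H2AH, HIST1H3I and HIST1H3J. The H1 box AAACACA was present in 6 of 6 H1 promoters, including those of genes without a UMI in mock-treated cells, in 1 of 16 H2A, 2 of 13 H3 and no H2B or H4 promoters, and in 5.64% of all RefSeq promoters. The octamer ATTTGCAT was present in 11 of 16 H2A and 14 of 18 H2B promoters, in no H1, H3 or H4 promoter, and in 1.77% of all promoters. CCAAT was present in all H1, H2A, H2B and H3 promoters and in 3 of 13 H4 promoters, against 34.6% of all. TATAAA was present in 3 H1, 12 H2A, 12 H2B, 10 H3 and 7 H4 promoters, against 11.5% of all. These matches describe the letters in the window and do not show that a factor was bound.

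The end of the annotated transcript was then compared with the level, because a transcript that ends past the stem-loop can reach a poly(A) site. The 17 members with such a transcript had a median of 77 UMIs in mock-treated and 194 in DAC-treated cells. The 49 members without one had medians of 4 and 28. The most captured members, HIST1H4C and HIST1H1C, nevertheless belonged to the 49. Among members with 100 UMIs or more, 11 of the 14 with a transcript past it were higher in DAC-treated cells by 1.5-fold and 1 was lower, with a median log2 ratio of 1.31. Of the 16 that ended at the stem-loop, 8 were higher and 4 lower, with a median of 1.02, beside 31% of all genes higher and 14.2% lower. The order of the medians depended on how the groups were formed, since 5 of the 17 members had the stem-loop only in their shorter transcripts. With these 5 moved to the other group, the medians were 1.13 and 1.31. Summed over members, the ratio was 2.40 for those with a transcript past the stem-loop and 0.839 for those that ended at it. The latter was 2.03 without HIST1H4C.

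To compare shares of cells at equal depth, 10000 UMIs were drawn per cell. Shallower cells, 395 of the mock-treated and 458 of the DAC-treated, were not used. At least 1 histone UMI was then present in 95.03% of mock-treated (93.8 to 96.1%) and 93.2% of DAC-treated cells (91.7 to 94.5%), and in 86.7% and 87.9% with all UMIs and cells. The share for H1 genes was 40.9% in mock-treated and 68.2% in DAC-treated cells. The share for H2B genes was 16.9% and 44.2%, and for H3 genes 5.12% and 8.66%. H2A genes were found in 43.4% and 46.2%, with overlapping intervals. HIST1H4C was found in 88.3% (86.4 to 89.9%) and 64.4% (61.7 to 67.0%), so that fewer DAC-treated cells held a UMI of it at the same depth. Free RNA in droplets can give UMIs to cells that do not express a gene, and no cell type without histone expression was present to measure it.

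Cells were ranked by the UMIs of 42 S-phase genes without histone genes, at 10000 UMIs per cell. The limits were the quartiles over both libraries together, which gave the ranges 0 to 5, 6 to 11, 12 to 29 and 30 to 100 UMIs. The ranges contained 658, 326, 256 and 148 mock-treated cells and 157, 216, 399 and 521 DAC-treated cells. More DAC-treated cells were therefore in the highest range, 40.3% (37.6 to 43.0%) against 10.7% (9.09 to 12.4%). The ranges divide a continuous score and are not cell types, and 41 mock-treated and 123 DAC-treated cells lay within 2 UMIs of the upper limit. From the lowest to the highest range, the median UMIs of 52 G2/M genes went from 7 to 53 in mock-treated and from 9 to 75 in DAC-treated cells. The median share of mitochondrial UMIs went from 18.2% to 15.5% and from 28.1% to 15.9%, in mock-treated and DAC-treated cells. Without cells above 20% mitochondrial UMIs, the histone level of the highest over the lowest range was 10.1-fold in mock-treated cells and 3.77-fold in DAC-treated cells, of which only 23 then remained in the lowest range.

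In mock-treated cells, histone UMIs per 10000 were 3.72, 4.97, 15.7 and 37.1 from the lowest to the highest range. In DAC-treated cells they were 3.16, 3.85, 7.28 and 16.3. The highest range was thus 9.97-fold above the lowest in mock-treated cells (9.51 to 10.5) and 5.16-fold in DAC-treated cells (4.72 to 5.66). Cells were also divided by PCNA, the sliding clamp of DNA polymerase, and MCM5, a subunit of the replicative helicase, which both belong to the S-phase list and are therefore no independent measure. In cells with 0, 1 to 2, 3 to 5, and 6 or more UMIs of both genes, histone UMIs were 5.30, 11.2, 25.4 and 34.3 in mock-treated cells and 4.34, 7.59, 14.2 and 17.8 in DAC-treated cells. Across 1388 mock-treated cells, Spearman's rho between histone and S-phase list UMIs was 0.46 and Pearson's r was 0.72, and across 1293 DAC-treated cells they were 0.59 and 0.54. These correlations describe cells that share a library.

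The ratio between libraries was not equal over the ranges. For all members without HIST1H4C, the ratio of DAC to mock was 2.37 in the lowest range, 2.87 and 1.25 in the next ranges and 0.980 (0.916 to 1.05) in the highest, where no difference was detectable and single members differed in opposite directions. By the other scores it was 1.16 (1.08 to 1.25) in the highest G2/M range and 1.23 (1.13 to 1.34) and 1.10 (0.946 to 1.29) in the upper ranges of PCNA and MCM5. For H1 genes the ratio was 3.27 in the lowest and 1.22 (1.11 to 1.33) in the highest range. For H2B genes it was 3.53 and 2.12 (1.62 to 2.82), so that both types were higher in DAC-treated cells at either end. H2A genes had ratios of 1.15 (0.897 to 1.46), 1.13, 0.560 and 0.487 (0.430 to 0.552), and the lower values of the upper ranges rested on HIST2H2AC. Without it the ratios of H2A genes were 1.52 (1.17 to 1.95) and 1.61 (1.22 to 2.14) in the lower ranges, and 1.09 (0.878 to 1.37) and 1.12 (0.915 to 1.37) in the upper ranges, where no difference was detectable. Single H2A genes differed in both directions in the highest range, with ratios of 2.08 for HIST1H2AC and 2.61 for HIST3H2A, 0.584 (0.385 to 0.902) for HIST1H2AG, and 0.0568 (0.00605 to 0.267) for HIST1H2AM on 10 and 2 UMIs. H3 genes had 34 UMIs in mock-treated and 71 in DAC-treated cells of the highest range, a ratio of 0.593 (0.389 to 0.921). This value rested on HIST1H3B, without which the ratio was 1.25 (0.662 to 2.58), and in the highest range of the G2/M list the ratio of all H3 genes was 0.976 (0.599 to 1.64). In cells with 6 or more UMIs of PCNA and MCM5, it was 0.389 (0.181 to 0.889), and 0.454 (0.164 to 1.44) without HIST1H3B, with 11 and 22 UMIs for all H3 genes. The direction for H3 genes among cells with many S-phase UMIs thus depended on the score and on 1 member. In the lower S-phase ranges all H3 genes together had at most 37 UMIs per library, and the intervals of their ratios included 1. Without HIST1H3B, the ratio in the range of 12 to 29 UMIs was 2.78 (1.12 to 8.26), on 6 and 26 UMIs. In cells with 0 UMIs of PCNA and MCM5, the ratio of all H3 genes was 2.75 (1.53 to 4.99), on 24 and 27 UMIs. H4 genes were lower in all 4 ranges, with a ratio of 0.166 in the lowest and 0.311 in the highest. This direction rested on HIST1H4C, without which the ratio in the highest range was 1.29 (0.808 to 2.15). In the lower ranges, HIST1H4C gave 1660 of 1692, 1233 of 1248 and 3183 of 3206 H4 UMIs in mock-treated cells. In DAC-treated cells it gave 50 of 67, 97 of 139 and 1278 of 1345, so the other H4 genes were not lower there either.

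HIST1H4C was lower in DAC-treated cells in every range. Its UMIs per 10000 were 2.52, 3.78, 12.4 and 29.7 in mock-treated cells and 0.318, 0.449, 3.20 and 9.09 in DAC-treated cells. In the highest range the ratio of DAC to mock was 0.306 (0.293 to 0.319), further from 1 than the ratio of 0.579 over all cells. With quartiles set within each library, an alternative chosen after the data were seen, this ratio was 0.513. By PCNA and MCM5, the ratio was between 0.331 and 0.380 in the 4 ranges. By the G2/M list it was between 0.0954 and 0.344. HIST2H2AC behaved alike, with 1.88 UMIs in mock-treated and 0.390 in DAC-treated cells of the highest range, and so did HIST1H1E, with 1.28 and 0.401. In the lowest range, both genes were at or below 0.131 UMI in either library.

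HIST1H1C followed another course. In the lowest range it had 0.378 UMI per 10000 in mock-treated (0.333 to 0.428) and 1.54 in DAC-treated cells (1.35 to 1.75), a ratio of 4.07 (3.40 to 4.88). In the next ranges the ratio was 5.83 (4.71 to 7.26) and 1.98 (1.71 to 2.28). In the highest range it had 2.59 and 3.01, a ratio of 1.16 (1.04 to 1.30). HIST1H1C was thus higher in DAC-treated cells in all 4 ranges, and least so in the highest. HIST1H1A, HIST1H1B and HIST1H1D had no UMI in the lowest range of DAC-treated cells and 0.637, 0.453 and 0.194 in the highest. Against 3 counts in the lowest range, these were at least 33.3-, 23.7- and 10.1-fold higher. In mock-treated cells none of the 3 genes had a UMI in any range, which follows from their absence from the whole mock-treated library.

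**Figure D4:**
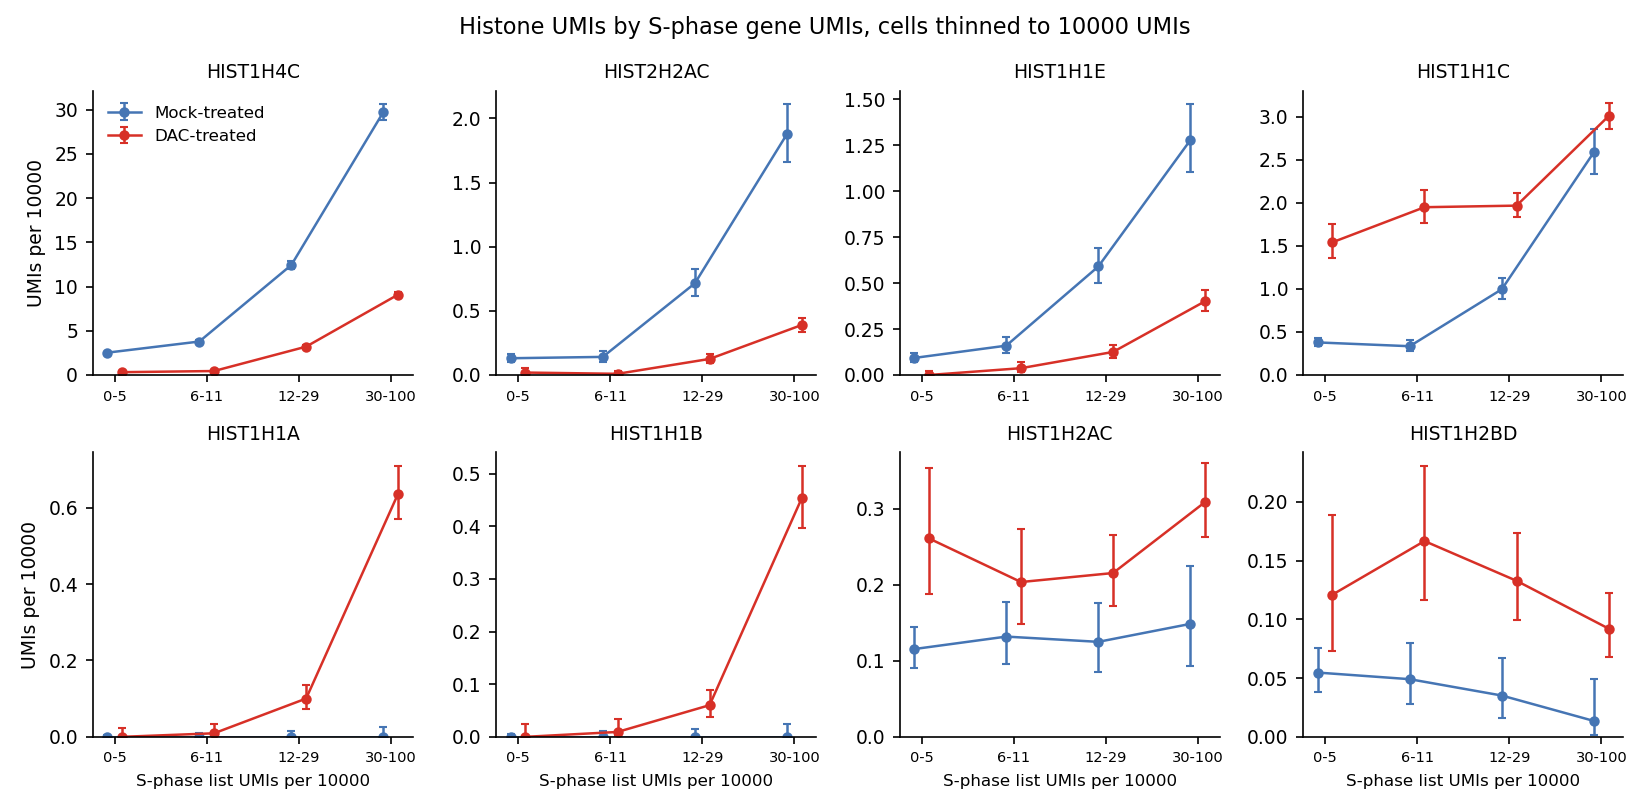
UMIs per 10000 of 8 histone genes in cells thinned to 10000 UMIs, by range of S-phase list UMIs, in mock-treated (blue) and DAC-treated cells (red), with exact Poisson 95% intervals. HIST1H4C was higher from range to range in both libraries, from 2.52 to 29.7 and from 0.318 to 9.09, while HIST1H1A had UMIs only in DAC-treated cells. HIST1H2BD went from 0.0547 to 0.0135 in mock-treated cells, on very few UMIs, as the highest range held only 148 of these cells.

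The 3 H1 genes were often found in the same cells, a comparison chosen after the data were seen. Of the 521 DAC-treated cells in the highest range, 147 had HIST1H1A, 110 had HIST1H1B and 62 had HIST1H1D, and 212 cells (40.7%) had at least 1 of them. HIST1H1B was found in 38.8% of cells with HIST1H1A (30.9 to 47.2%) and in 14.2% of cells without it (10.8 to 18.1%). HIST1H1D was found in 34.5% of cells with HIST1H1B (25.7 to 44.2%) and in 5.84% of cells without it (3.78 to 8.56%). Cells of the same range still differ in S-phase UMIs, and the part of this in the overlap was not tested.

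Not all members followed the S-phase genes. With 20 UMIs or more in the lowest and highest ranges together, 13 members were compared in mock-treated cells, and 9 were 2-fold or more higher in the highest range, compared with 9.22% of all such genes. In DAC-treated cells 12 of 20 members were, compared with 14.8% of all such genes. Members with 3 UMIs or fewer in the lowest range passed this limit through the highest, namely HIST1H3B in mock-treated cells and HIST1H1A, HIST1H1B, HIST1H1D, HIST1H1E, HIST1H2AG, HIST1H2AH, HIST1H2BG and HIST2H2AC in DAC-treated cells, so these counts do not stand for all members. HIST3H2A, HIST1H2AC, HIST1H2BD and HIST1H2BN stayed below 2-fold in both libraries. HIST1H2AC had 0.116 UMI in the lowest and 0.149 in the highest range of mock-treated cells, and 0.261 and 0.309 in DAC-treated cells. HIST1H2BD had 0.0547 and 0.0135 in mock-treated cells and 0.121 and 0.0921 in DAC-treated cells. HIST1H4H, 45.6-fold higher over all cells, had 0.0701 and 0.0768 in DAC-treated cells. These levels are well below 1 UMI per cell, so that only sums over many cells could be compared.

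Genes of the S-phase and G2/M lists were mostly higher in the DAC-treated library. Of the 42 S-phase genes, 34 were higher by 1.5-fold and none was lower, with a median log2 ratio of 0.99, and of the 52 G2/M genes 40 were higher and none lower, with a median of 0.86. PCNA had 3023 and 10824 UMIs, a ratio of 3.03 (2.91 to 3.15), and MCM5 had 1695 and 4156, a ratio of 2.07 (1.96 to 2.19). HIST1H4C was thus lower while both genes were higher over all cells. Within the S-phase ranges PCNA was higher in DAC-treated cells in each, whereas the ratio of MCM5 was 0.903 (0.764 to 1.07) in the highest. Of 15 genes of histone pre-mRNA processing and transcription, 5 were higher, a share near the 31% of all genes, and none was lower, with a median of 0.41. SLBP, the stem-loop binding protein, had a ratio of 2.22 (2.14 to 2.31), whereas NPAT, an activator of histone transcription, had 1.31 (1.17 to 1.46) and CASP8AP2 had 1.41 (1.31 to 1.52). Of 9 histone chaperones, 6 were higher, with a median of 0.97, among them NASP, which binds H1 and H3-H4, with 1.95 (1.90 to 2.01). Within the S-phase ranges the differences of SLBP, NASP and NPAT were smaller or turned, whereas that of CASP8AP2 was larger in the lowest range. SLBP, NASP and CASP8AP2, like PCNA and MCM5, belong to the S-phase list that set the ranges. Their ratios within ranges are therefore partly fixed by the ranking and are no independent measure. SLBP had 1.25 in the lowest and 1.33 in the highest range and NASP 0.804 and 1.35. NPAT had 0.476 and 1.07 and CASP8AP2 1.87 and 0.807, on as few as 5 UMIs. By their intervals, no difference was detectable for SLBP, NASP and NPAT in the lowest range or for NPAT and CASP8AP2 in the highest.

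The replication-independent histone genes differed in both directions. Of 11 genes, 2 were higher and 2 lower by 1.5-fold, beside 31% and 14.2% of all genes, with a median log2 ratio of 0.44. H2AFZ had 45407 and 85819 UMIs, a ratio of 1.60 (1.58 to 1.62), and H3F3B had 77013 and 123569, a ratio of 1.36 (1.34 to 1.37). The direction of both genes depended on the S-phase range, with ratios of 0.535, 0.635, 1.10 and 1.17 for H2AFZ from the lowest to the highest and of 0.842, 0.999, 1.14 and 1.14 for H3F3B. H2AFJ had a ratio of 1.46 (1.37 to 1.56). H1F0, the linker histone of cells that stop dividing, was lower, with 18121 and 8465 UMIs and a ratio of 0.395 (0.385 to 0.405). Its ratio was 0.280 in the lowest S-phase range and 0.297 in the highest. In the lowest range, DAC-treated cells thus had less H1F0 and more HIST1H1C than mock-treated cells.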

How the data were processed

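Transcripts were counted in HCT116 cells, 1783 in the mock-treated and 1751 in the DAC-treated library, with 1 library per condition. Libraries were made with a 3' droplet kit, and per the submitters' processing notes reads were handled with Cell Ranger on hg38. The annotation release was not given in the sources used here. The authors deposited raw UMI counts for each gene in each cell, without normalization. All cells were used, including 311 mock-treated and 319 DAC-treated cells with more than 50% mitochondrial UMIs. Doublets were not called and may remain among the cells. UMIs were summed per library and scaled to its total, and 3 counts over the library stood for a count of 0 in lower limits. Genes with 100 UMIs or more over both libraries were compared at 1.5-fold. For shares and ranges, cells were thinned to 10000 UMIs. Alternatives covered scaling, cell filters, count and fold limits, thinning depth, S-phase scores and leaving out the member with the most UMIs. Named members were the 12 with the most UMIs, the 5 highest and 5 lowest ratios, the leading member of each type, those with 0 UMIs in a library and 20 or more in the other, and 4 testis-expressed members. Beyond this rule, HIST1H2BJ, HIST1H2BK, HIST2H2BF, HIST3H2BB, HIST1H4H, HIST1H4J, HIST1H4A, HIST1H2AH, HIST1H3I, HIST1H4E, HIST1H3B, HIST1H3J, HIST2H4A and the members with no UMI were named after their values were seen. Of the other lists, 10 genes were fixed for naming. Members and lists were chosen with earlier results of these data known. Transcript positions were taken from GENCODE release 44 and promoters from RefSeq (GRCh38.p14). Computations used Python 3.11.15, numpy 2.4.6, scipy 1.17.1, pandas 2.3.3 and matplotlib 3.10.9, and were tested on simulated data.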

Additional observations from a re-analysis of the deposited data

How the results depend on the processing

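Values were computed again with 1 choice changed at a time, except that shallow cells and cells above 50% mitochondrial UMIs were left out together, and the cause of each difference was not tested. The log2 ratio of all histone genes together, DAC over mock, was -0.13 with all cells and total scaling. It was -0.025 without cells above 20% mitochondrial UMIs, -0.041 without the deepest 5% of cells, 0.0095 in thinned cells, -0.36 with median-of-ratios scaling, -0.085 when scaled to non-mitochondrial UMIs, 0.26 as a mean over cells and 1.07 without HIST1H4C. For H1 genes it was 1.498 without the deepest cells, 1.58 in thinned cells, 1.17 with median-of-ratios scaling, 1.45 when scaled to non-mitochondrial UMIs, 1.90 as a mean over cells and 1.09 without HIST1H1C, against 1.41. For H2A genes the ratio of 0.05 became 0.11 without the deepest cells, -0.19 with median-of-ratios scaling, 0.62 as a mean over cells and 0.69 without HIST2H2AC. For H2B genes the ratio of 1.74 became 1.88 in thinned cells, 1.51 with median-of-ratios scaling, 2.04 as a mean over cells and 1.88 without HIST1H2BN. For H3 genes the ratio of 0.96 became 0.72 with median-of-ratios scaling, 2.24 as a mean over cells and 0.71 without HIST1H3H. For H4 genes the ratio of -0.75 became -0.56 without cells above 20% mitochondrial UMIs, -0.66 without the deepest cells, -0.62 in thinned cells, -0.99 with median-of-ratios scaling, -0.71 when scaled to non-mitochondrial UMIs and -0.54 as a mean over cells. Only leaving out HIST1H4C turned it, to 1.15. HIST2H4B turned to 0.20 in thinned cells. Of 282 values of 41 single genes under these settings, 188 stayed within the counting interval, 93 lay outside it and 1 value past 1.5-fold, that of HIST2H4B, turned.

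At 20 UMIs or more, 31 of 53 members were 1.5-fold or more higher in DAC-treated cells, beside 36.1% of all genes at that limit, and at 500 UMIs or more 10 of 14 members, beside 27.8%. At 100 UMIs or more there were 19 of 31, beside 31%. Lower by that fold were 3 of 14 members at 500 UMIs or more, beside 12.2% of all genes, and 2 of 31 members were lower by 2-fold, beside 6.80%, against 5 of 31, beside 14.2%. A histone UMI was present in 95.03% of mock-treated and 93.2% of DAC-treated cells at 10000 UMIs, and in 39.8% and 47.2% at 1000 UMIs.

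The histone level of the highest over the lowest S-phase range, 9.97-fold in mock-treated cells, was 11.3-fold at 5000 UMIs, 6.48-fold by PCNA and MCM5 and 6.15-fold without HIST1H4C. In DAC-treated cells the value of 5.16-fold became 5.88-fold at 20000 UMIs, 4.11-fold by PCNA and MCM5, 3.77-fold without cells above 20% mitochondrial UMIs and 2.54-fold without HIST1H4C.

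Other alternatives were chosen after seeing the data. With quartiles set within each library, the mock-treated value was 7.57-fold. The HIST1H4C ratio in the highest range, 0.306, was 0.380 by PCNA and MCM5, 0.332 without cells above 20% mitochondrial UMIs, 0.344 by the G2/M list and 0.513 with quartiles set within each library. For types in the highest range, the H1 ratio of 1.22 was 1.36 by the G2/M list and 1.38 by PCNA and MCM5. The H2A ratio of 0.487 was 0.621 and 0.601 by these scores and turned to 1.12 without HIST2H2AC. The H3 ratio of 0.593 was 0.976 and 0.389 by these scores and turned to 1.25 without HIST1H3B. The H4 ratio of 0.311 was 0.350 and 0.385 by these scores and turned to 1.29 without HIST1H4C. The H2B ratio of 2.12 stayed within its interval under the same alternatives. The median log2 ratio was 1.31 for members with a transcript past the stem-loop and 1.02 for those without. Leaving out shallow cells and cells above 50% mitochondrial UMIs gave 1.33 and 1.01, and median-of-ratios scaling gave 1.08 and 0.79. At 20 UMIs or more, the median of members without such a transcript was 0.64. Counting only transcripts that hold the stem-loop gave 1.13 for members with such a transcript and 1.31 for the others.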
